A study of Homo sapiens with 6 samples.

Results

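The genes described here are the numbered kinesins and the lettered centromere proteins, 58 genes of 18132 measured. A gene was taken when its symbol in the probe annotation was KIF with a number and an optional letter, which gave 38 kinesins, or CENP with 1 capital letter, which gave 20 centromere proteins. Each was represented by its brightest probe set that names a single gene. The labels give the cells as NCI-H929, a line from human multiple myeloma, which lineage markers on the arrays go against in part, and 6 arrays were hybridised, 1 per sample. In the 3 PRMT5_down samples the cells had been given a lentivirus against PRMT5, an enzyme that places symmetric dimethyl marks on arginines of histones and other proteins; in the 3 control samples they carried a control lentivirus according to the titles. The treatment protocol describes a short hairpin vector and puromycin selection and calls the comparison cells normal NCI-H929, whereas titles and series text speak of sponges. The study asked which genes may be targets of PRMT5. Each group has replicate numbers 1 to 3, and the labels do not state whether these were separate cultures, so every p-value measures the spread between these arrays only.

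Kinesins are motor proteins that walk along microtubules or take them apart at their ends. A set of them builds and moves the mitotic spindle and completes cell division, and their transcripts are known to accumulate late in the cell cycle; others carry vesicles, organelles and ciliary cargo in cells whether or not they divide. Centromere proteins mark the site on each chromosome where the kinetochore forms: the histone variant CENP-A lies in the chromatin, a constitutive network of CENP proteins sits on it through the cell cycle, and the outer kinetochore with its motors is added for mitosis. Transcription of many late cell cycle genes depends on a promoter element called the cell cycle homology region, often found beside CCAAT boxes.

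These elements were counted in the promoters of the members, with no test of the shares. In RefSeq promoters of build GRCh38.p14, from 250 bases before to 50 bases after the start of transcription, 49 of the 58 genes were found, with 60 promoters. The cell cycle homology region was searched as TTTGAA or TTCGAA on both strands. TTCGAA reads the same on both strands. The element was present in 10 of 14 promoters of mitotic kinesins, 1 of 16 of transport kinesins, 1 of 11 of other kinesins, 4 of 14 of the constitutive network and 2 of 5 of the other CENP genes. Of all 35116 promoters in the table, 16.4% held it. The CCAAT box, searched as CCAAT on both strands, was in 9 of 14 promoters of mitotic kinesins, 5 of 16 of transport kinesins, 4 of 11 of other kinesins, 8 of 14 of the constitutive network and 2 of 5 of the other CENP genes, against 34.6% of all promoters. Both elements together were in 8 of 14 promoters of mitotic kinesins, 1 of 16 of transport kinesins, 1 of 11 of other kinesins, 3 of 14 of the constitutive network and 2 of 5 of the other CENP genes, against 6.38% of all. An E2F site was searched as GGCGGGAA on both strands, a word that contains neither of the other motifs. It was in 0 of 14 promoters of mitotic kinesins, 0 of 16 of transport kinesins and 0 of 11 of other kinesins. The constitutive network had it in 2 of 14 and the other CENP genes in 2 of 5, against 3.16% of all promoters. A match of letters is a description and shows neither binding nor its absence.

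The promoters of 3 mitotic kinesins and of CENPF, whose difference between groups was the largest among the 58, are shown because they hold both elements, and that of the transport kinesin KIF3B because it holds a CCAAT box and no cell cycle homology region. Capitals mark TTTGAA or its reverse complement TTCAAA, and CCAAT or its reverse complement ATTGG. Each sequence runs 5′ to 3′ in the direction of the gene.
CENPF, chr1:214602945-214603244, plus strand: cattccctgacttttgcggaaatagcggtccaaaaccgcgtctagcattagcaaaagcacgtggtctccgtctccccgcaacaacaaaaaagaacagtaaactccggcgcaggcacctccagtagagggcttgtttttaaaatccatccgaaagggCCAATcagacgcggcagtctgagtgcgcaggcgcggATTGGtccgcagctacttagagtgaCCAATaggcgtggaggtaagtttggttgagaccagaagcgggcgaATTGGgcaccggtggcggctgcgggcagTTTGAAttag
KIF11, chr10:92592880-92593179, plus strand: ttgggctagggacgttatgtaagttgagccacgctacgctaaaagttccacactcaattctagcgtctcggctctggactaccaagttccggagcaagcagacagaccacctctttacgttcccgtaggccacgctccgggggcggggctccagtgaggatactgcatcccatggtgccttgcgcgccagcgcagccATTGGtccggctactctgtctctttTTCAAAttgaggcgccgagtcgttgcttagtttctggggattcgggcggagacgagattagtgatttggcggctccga
KIF14, chr1:200620702-200621001, minus strand: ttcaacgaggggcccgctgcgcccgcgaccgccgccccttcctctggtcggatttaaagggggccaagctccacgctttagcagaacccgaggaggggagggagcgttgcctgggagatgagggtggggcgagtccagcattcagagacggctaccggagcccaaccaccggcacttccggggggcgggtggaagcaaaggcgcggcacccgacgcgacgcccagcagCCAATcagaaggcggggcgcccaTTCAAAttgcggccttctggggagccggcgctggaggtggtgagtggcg
KIF23, chr15:69414099-69414398, plus strand: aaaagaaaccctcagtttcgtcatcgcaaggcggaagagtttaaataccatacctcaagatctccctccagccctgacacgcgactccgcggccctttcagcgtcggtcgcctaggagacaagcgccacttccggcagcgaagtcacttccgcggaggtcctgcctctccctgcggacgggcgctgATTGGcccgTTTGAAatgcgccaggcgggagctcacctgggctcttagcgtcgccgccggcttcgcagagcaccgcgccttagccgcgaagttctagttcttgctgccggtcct
KIF3B, chr20:32277401-32277700, plus strand: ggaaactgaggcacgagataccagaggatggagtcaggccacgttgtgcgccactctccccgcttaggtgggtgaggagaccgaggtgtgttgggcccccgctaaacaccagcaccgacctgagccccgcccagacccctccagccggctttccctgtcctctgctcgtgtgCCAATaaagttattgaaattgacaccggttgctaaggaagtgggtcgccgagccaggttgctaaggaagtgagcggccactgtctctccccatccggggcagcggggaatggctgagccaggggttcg
In KIF11 the element began at base -28 and the nearest CCAAT box at base -53, counted from the start of transcription, and in KIF23 at -55 and -64. In CENPF the element lay at base 41, downstream of the start, with 4 CCAAT boxes between -94 and 13. In KIF14 the element began at base 2 and the CCAAT box at -22.

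Most of these genes had a clear signal. Background was set on each array from 333 olfactory receptor genes, at their 95th percentile, and lay between 4.89 and 5.01 log2 units. Of the 58 genes, 45 exceeded it on all 6 arrays and 9 on none: KIF1A, KIF2B, KIF5C, KIF6, KIF7, KIF17, KIF26A, KIF26B and KIF27. CENPI was above it on 2 arrays, KIF25 on 4 and KIF3A and KIF13A on 5. By role, 12 of 13 mitotic kinesins, 8 of 13 transport kinesins, 6 of 12 other kinesins, 14 of 15 genes of the constitutive network and 5 of 5 other CENP genes cleared it on every array. KIF4B had a probe set only in common with KIF4A and is not counted. CPAP, an older name of which is CENPJ, and ITGB3BP, known as CENP-R, carry other symbols and are not counted either. Since each probe set has its own scale, a gene is compared with itself only.

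PRMT5 itself was lower in the PRMT5_down arrays. Its log2 signal was 8.63, 9.65 and 9.37 in PRMT5_down, against 9.93, 10.35 and 10.30 in control replicates 1, 2 and 3. The difference was -0.98 (SE 0.28, n = 3 each), and the groups did not overlap. An exact permutation test, two-sided, returned p = 0.1, below which a design of 3 against 3 cannot go. Limma over all genes did not call it (adjusted p = 1 as planned and 0.211 with the replicate number as a block). The labelled cell line was checked against lineage genes, which went against it in part. Of 11 plasma cell markers, 4 were above background on all arrays (SDC1, XBP1, PRDM1 and CD79A), while TNFRSF17, CD38, IRF4, MZB1, POU2AF1 and SLAMF7 exceeded it on none. The median level of that list was 4.36, 4.44 and 4.84 in PRMT5_down, against 4.64, 4.62 and 4.78 in control. All 11 had a lower mean in PRMT5_down, where 10057 of all 18132 genes did so. Their differences went from -0.24 for SDC1 to -0.01 for POU2AF1. Of 11 erythroid and megakaryocyte markers 10 were above background on all arrays, and 9 had a higher mean in PRMT5_down, with a median difference of 0.24. Of all 10215 genes above background on all arrays, 5116 had a higher mean there. The median level of these 11 markers was 9.81, 10.22 and 10.44 in PRMT5_down, against 9.67, 10.14 and 9.97 in control. PF4 alone was not above background. The globin genes HBE1 and HBZ averaged 13.48 and 11.71 in PRMT5_down and 13.39 and 11.13 in control. AHSP, the chaperone of alpha globin, had 8.75, 7.04 and 6.92 in PRMT5_down, against 6.74, 5.85 and 5.39 in control. Its difference of 1.58 (SE 0.58) and that of SLC4A1, 1.00 (SE 0.36), exceeded those of all 58 kinesins and centromere proteins, and limma called neither (adjusted p = 1). NSD2 and FGFR3, known to be activated by translocation in NCI-H929, were above it on all arrays. CD14 and CD3E, markers of monocytes and T cells, had means of 3.10 and 4.85 in PRMT5_down and 3.28 and 4.81 in control, while CD3D and LYZ were above background on all 6 arrays. What part the lineage markers have in the values below was not tested. In such bulk RNA, a smaller share of dividing or other cells and less transcript per cell cannot be told apart.

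None of the kinesins or centromere proteins passed the limma test of PRMT5_down against control. Limma, with Benjamini-Hochberg adjustment over all genes and a threshold of 0.05, called 0 of the 58, as it called 0.0% of all 18132 genes. At an unadjusted p under 0.05 limma gave 1 of the 58, KIF26B, against 0.822% of all genes. With the replicate number as a block, the limma fit again called 0, and 7 of the 58 had an unadjusted p under 0.05, against 8.26% of all genes. Those 7 were CENPF, CENPE, CENPC and KIF3A on the higher side, where 4.45% of all genes stood, and CENPH, CENPV and KIF26B on the lower, where 3.81% stood. Of the 45 genes above background on all arrays, 5 were among them, 3 higher and 2 lower, against 10.4%, 6.26% and 4.13% of all such genes. The difference was above 0 for 33 of the 58 genes, below 0 for 24 and 0 for 1, where 43.3% of all genes had a difference above 0. The median was 0.03 over the 58 and -0.02 over all genes. Among genes above background on all arrays, the difference was above 0 for 27 of the 45, against 50.1% of all 10215 such genes, and the median was 0.04 over the 45 and 0.00 over the 10215.

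**Figure D1:**
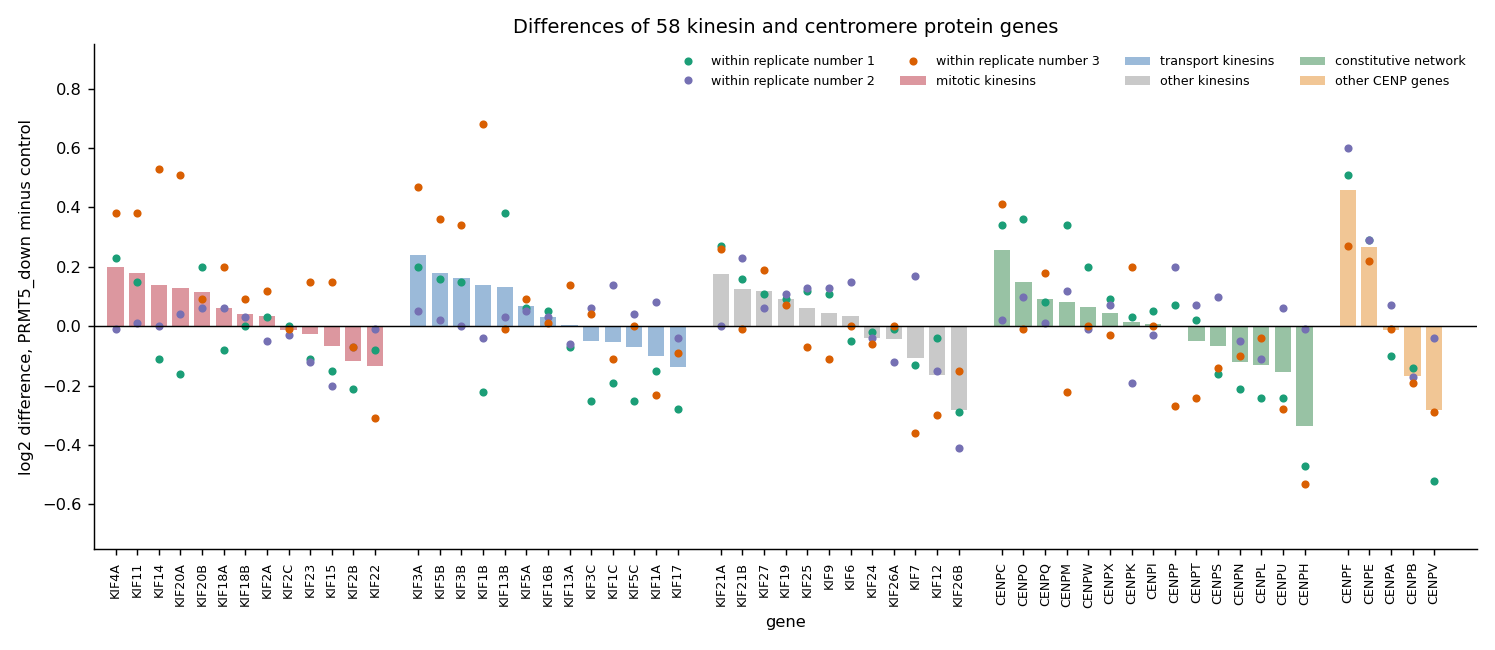
Log2 difference between PRMT5_down and control (y axis) for each of the 58 genes (x axis), grouped by role. Bars are means over the 3 arrays of each group and points are the differences within replicate numbers 1, 2 and 3. CENPF has the tallest bar, at 0.46, and for most genes the points fall on both sides of 0.

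Mitotic and transport kinesins did not separate. The 13 mitotic kinesins had a median log2 difference of 0.04, with 8 above 0 and 5 below, and the 13 transport kinesins a median of 0.03, also with 8 above and 5 below. The gap between the medians, mitotic minus transport, was 0.01 overall and -0.01, -0.04 and 0.11 within replicate numbers 1, 2 and 3. Over the 12 and 8 genes above background on all arrays the gap was -0.05. The median of the mitotic kinesins was -0.08, -0.01 and 0.15 within numbers 1, 2 and 3, so that number 3 alone was above 0. There, 10 of the 13 were higher in PRMT5_down, against 4 in number 1 and 5 in number 2. Without control replicate 3 the median of the mitotic kinesins was -0.12.

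Among the mitotic kinesins, KIF11, the motor that pushes the spindle poles apart, had log2 signals of 9.41, 8.54 and 8.54 in PRMT5_down, against 9.26, 8.53 and 8.16 in control replicates 1, 2 and 3. Number 1 was the high one in both groups, and the groups overlapped. The difference of 0.18 (SE 0.36 as planned and 0.09 with the block) was not called by limma (adjusted p = 1 as planned and 0.635 with the block). KIF4A, a chromokinesin of chromosome arms and the central spindle, had 8.05, 7.78 and 7.51 in PRMT5_down, against 7.82, 7.79 and 7.13 in control. Its difference was 0.20 (SE 0.23), and it was 0.23, -0.01 and 0.38 within numbers 1, 2 and 3. The probe set that KIF4A shares with KIF4B gave 0.33, -0.01 and 0.37. KIF23, a subunit of centralspindlin, which organises the midzone for cytokinesis, had 6.80, 7.08 and 6.52 in PRMT5_down, against 6.91, 7.20 and 6.37 in control. Its difference was -0.03 (SE 0.25), and all PRMT5_down values lay within the range of the controls. KIF22, another chromokinesin, had 9.06, 9.39 and 9.06 in PRMT5_down, against 9.14, 9.40 and 9.37 in control, a difference of -0.13 (SE 0.13). It was below its control in each number, by 0.01 in number 2.

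By brightest probe set, KIF18B, which shortens astral microtubules, varied least over the numbers among those with a signal. It had 6.50, 6.59 and 6.56 in PRMT5_down, against 6.50, 6.56 and 6.47 in control. Dimmer KIF18B probe sets, also above background on all arrays, varied more. In PRMT5_down against control they had 5.79, 6.22 and 6.23 against 6.01, 6.27 and 6.23, and 5.30, 5.71 and 5.79 against 5.51, 5.78 and 5.74. KIF2B, a depolymerase, was at or below background everywhere, at 2.81, 2.95 and 3.02 in PRMT5_down, against 3.02, 3.02 and 3.09 in control. The remaining mitotic kinesins had differences between -0.07 and 0.14. KIF20A, which carries the chromosomal passenger complex to the midzone, differed by 0.13 (SE 0.41), KIF14, a cytokinesis motor, by 0.14 (SE 0.40), and KIF20B, also of cytokinesis, by 0.12 (SE 0.35). KIF18A, which damps chromosome movement at the metaphase plate, differed by 0.06 (SE 0.24). The depolymerase KIF2A of spindle poles differed by 0.03 (SE 0.15), KIF2C of centromeres by -0.01 (SE 0.24), and KIF15, which can stand in for KIF11, by -0.07 (SE 0.38). Within numbers 1, 2 and 3, KIF20A differed by -0.16, 0.04 and 0.51. KIF14 differed by -0.11, 0.00 and 0.53 with its brightest probe set and by 0.27, 0.13 and 0.50 with its other one, also above background on all arrays.

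**Figure D2:**
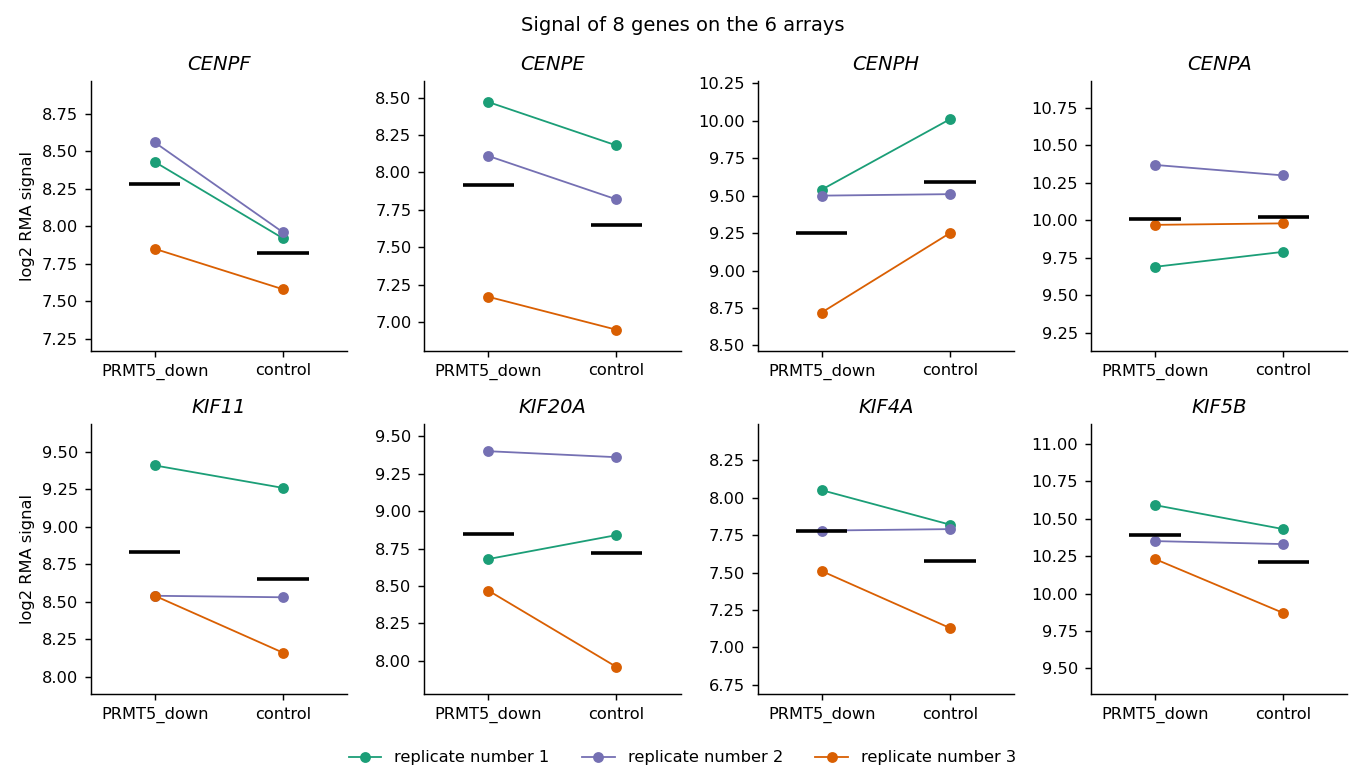
Log2 signal (y axis) of 8 genes on each array, with PRMT5_down at left and control at right; lines join arrays of one replicate number and black bars are group means. CENPF and CENPE are higher in PRMT5_down within every number, yet for CENPE number 3 lies lowest in both groups, at 7.17 in PRMT5_down and 6.95 in control.

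The transport kinesins with the smallest unadjusted limma p were KIF3B, KIF17, KIF5B and KIF3A. KIF5B, the broadly expressed heavy chain of kinesin-1, had 10.59, 10.35 and 10.23 in PRMT5_down, against 10.43, 10.33 and 9.87 in control. It was higher within each number, by 0.16, 0.02 and 0.36, and the mean difference of 0.18 (SE 0.18) did not pass limma (adjusted p = 1). KIF3A and KIF3B form the motor of kinesin-2, which drives transport into cilia. KIF3B had 7.63, 7.64 and 7.66 in PRMT5_down, against 7.48, 7.64 and 7.32 in control, a difference of 0.16 (SE 0.10). The PRMT5_down values lay within 0.03 of each other, and control replicate 2 equalled one of them. KIF3A had 5.79, 5.84 and 5.40 in PRMT5_down, against 5.59, 5.79 and 4.93 in control. Its difference was 0.24 (SE 0.25), with 0.20, 0.05 and 0.47 within numbers 1, 2 and 3, and -0.01 without control replicate 3. A dimmer KIF3A probe set, above background on 4 arrays, gave 0.59, 0.15 and 0.73 within the numbers. The dimmest, above it on 0 arrays, gave 0.02, 0.31 and 0.22. KIF17, a dendritic motor, was not above background on any array and had 4.18, 4.33 and 4.37 in PRMT5_down, against 4.46, 4.37 and 4.46 in control.

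Of the other transport kinesins, the vesicle and mitochondrial motor KIF1B differed by 0.14 (SE 0.18), with -0.22, -0.04 and 0.68 within numbers 1, 2 and 3. Its 6 probe sets had mean differences from -0.03 to 0.19. KIF13B differed by 0.13 (SE 0.18), KIF5A of neuronal kinesin-1 by 0.07 (SE 0.10), the endosome motor KIF16B by 0.03 (SE 0.15) and KIF13A by 0.00 (SE 0.10). KIF3C stood at -0.05 (SE 0.12), KIF1C at -0.05 (SE 0.15), KIF5C at -0.07 (SE 0.09) and KIF1A, a motor of synaptic vesicle precursors, at -0.10 (SE 0.11). None passed limma.

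The other kinesins held the single gene of the 58 with an unadjusted limma p under 0.05. KIF26B, a family member without known motility, had 4.38, 4.47 and 4.48 in PRMT5_down, against 4.67, 4.88 and 4.63 in control. All PRMT5_down values were below all controls, but none was above background. The difference was -0.28 (SE 0.10), with an unadjusted limma p of 0.0275 and an adjusted limma p of 1. Its other 3 probe sets had differences of -0.01, 0.05 and -0.03. KIF27 had 2.61, 2.58 and 2.69 in PRMT5_down, against 2.50, 2.52 and 2.50 in control, apart but also at or below background throughout. Groups that did not overlap were thus seen for 1 of the 58 genes on the higher side and 1 on the lower, where 1.26% and 2.66% of all genes did so. Of the 45 genes above background on all arrays it was seen for 0 in either direction, against 1.22% and 1.31% of all such genes. KIF12 had 5.73, 5.80 and 5.88 in PRMT5_down, against 5.77, 5.95 and 6.18 in control, a difference of -0.16 (SE 0.12). KIF19, which limits the length of motile cilia, had 5.18, 5.09 and 5.15 in PRMT5_down, against 5.09, 4.98 and 5.08 in control, a difference of 0.09 (SE 0.08). KIF21A and KIF21B, which restrain microtubule growth, differed by 0.18 (SE 0.41) and 0.13 (SE 0.31). The remaining members KIF6, KIF7, KIF9, KIF24, KIF25 and KIF26A had differences between -0.11 and 0.06.

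Among the centromere proteins, CENPF and CENPE, both of the outer kinetochore, had the highest differences. CENPF, a large kinetochore protein that accumulates in G2, had 8.43, 8.56 and 7.85 in PRMT5_down, against 7.92, 7.96 and 7.58 in control replicates 1, 2 and 3. It was higher within every number, by 0.51, 0.60 and 0.27, but the lowest PRMT5_down value lay below 2 controls. The means were 8.28 ± 0.38 in PRMT5_down and 7.82 ± 0.21 in control (SD, n = 3 each), a 1.38-fold level on the linear scale and a log2 difference of 0.46 (SE 0.21). Limma did not call it (adjusted p = 1 as planned). With the block the SE was 0.09, and the adjusted limma p of 0.435 missed as well. The second CENPF probe set, a dimmer one, gave 0.07, 0.24 and 0.42, so that the sign was the same and the order of the numbers was not. CENPE, the kinesin that tethers chromosomes to the spindle at kinetochores, had 8.47, 8.11 and 7.17 in PRMT5_down, against 8.18, 7.82 and 6.95 in control. The difference was 0.29, 0.29 and 0.22 within the numbers and 0.27 on average. The planned fit gave an SE of 0.44 and the blocked one 0.08, and limma called CENPE in neither (adjusted p = 1 and 0.562).

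CENPA, the histone variant of centromeric chromatin, had 9.69, 10.37 and 9.97 in PRMT5_down, against 9.79, 10.30 and 9.98 in control. The difference was -0.01 (SE 0.21), and the 3 other CENPA probe sets stood at -0.05 to -0.06. CENPB, which binds alpha satellite DNA, had 6.96, 7.03 and 7.39 in PRMT5_down, against 7.10, 7.20 and 7.58 in control. It was below its control in every number, by 0.14, 0.17 and 0.19, with a mean difference of -0.17 (SE 0.18) that did not pass limma (adjusted p = 1). CENPV, a microtubule-organising protein, had 7.52, 8.14 and 8.20 in PRMT5_down, against 8.04, 8.18 and 8.49 in control, a difference of -0.28 (SE 0.22).

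The constitutive network showed members on both sides. Of its 15 genes, 8 had a difference above 0, 6 below and 1 at 0, with a median of 0.01, and limma called 0 of them as planned and with the block. CENPH, of the CENP-H, CENP-I, CENP-K and CENP-M complex, had 9.54, 9.50 and 8.72 in PRMT5_down, against 10.01, 9.51 and 9.25 in control. Its difference was -0.34 (SE 0.29), and it was -0.47, -0.01 and -0.53 within the numbers. Its partners stood nearer to 0, with CENPK at 0.01 (SE 0.41), CENPI at 0.01 (SE 0.24) and CENPM at 0.08 (SE 0.30). CENPC, the scaffold that ties CENP-A chromatin to the kinetochore, had 7.68, 7.27 and 6.80 in PRMT5_down, against 7.34, 7.25 and 6.39 in control. Its difference was 0.26 (SE 0.33), and -0.05 without control replicate 3.

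CENPN, which reads the CENP-A nucleosome, had 9.85, 10.01 and 9.80 in PRMT5_down, against 10.06, 10.06 and 9.90 in control. The difference of its brightest probe set was -0.12 (SE 0.10), while the mean over its 6 probe sets was 0.05. Its partner CENPL stood at -0.13 (SE 0.21). CENPO had 7.52, 6.81 and 7.25 in PRMT5_down, against 7.16, 6.71 and 7.26 in control, a difference of 0.15 (SE 0.23). Of the complex it belongs to, CENPP stood at 0.00 (SE 0.26), CENPQ at 0.09 (SE 0.46) and CENPU at -0.15 (SE 0.26). The histone fold proteins CENPT, CENPW, CENPS and CENPX stood at -0.05 (SE 0.12), 0.06 (SE 0.30), -0.07 (SE 0.24) and 0.04 (SE 0.14). None of these passed limma.

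Within the replicate numbers, 12 of the 58 genes were higher in PRMT5_down in all 3 and 11 were lower in all 3, where 11.7% and 15.2% of all genes were. Of 21 members with more than 1 probe set above background on all arrays, 16 had all such probe sets on the same side of 0. Exceptions were CENPN and KIF18B, among others, so for these genes the sign rests on the probe set chosen.

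Levels differed between replicate numbers in many of these genes. Averaged over both groups, the log2 signal of CENPQ was 9.26 in number 1, 8.35 in number 2 and 7.92 in number 3, a range of 1.34, while PRMT5_down and control differed by 0.09. An F test over the numbers in limma, in the fit with group and number and chosen after the data were seen, called 33 of the 58 genes, against 35.1% of all genes. Of the 45 above background on all arrays it called 30, against 54.9% of all such genes. Called were 10 of 13 mitotic kinesins, 12 of 15 genes of the constitutive network and 5 of 5 other CENP genes. So were 3 of 13 transport kinesins, KIF3A, KIF5B and KIF16B, and 3 of 12 other kinesins, KIF21A, KIF21B and KIF25. In these lists 8 of the 13 and 6 of the 12 genes were above background on all arrays. Of the called genes named here, KIF3A and KIF25 were not among those. The differences between the shares called, and any part of signal level in them, were not tested. With any 1 array left out the F test called 0 genes of the 58, with 1 residual degree of freedom, and 30 to 32 had an unadjusted limma p under 0.05. The labels do not say what arrays of one number share.

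Averaged over the groups, all 10 mitotic kinesins called between numbers were lowest in number 3. So were 8 of the 12 called genes of the constitutive network and CENPE and CENPF. CENPA, CENPB, CENPV and CENPS were lowest in number 1 and CENPM, CENPP and CENPO in number 2. Among all genes called between numbers, 2493 of 6363 were lowest in number 3. Some of these ranks were nearly tied. KIF2A had 8.645 in number 2 and 8.64 in number 3, and CENPI had 4.815 and 4.80. In PRMT5_down, KIF2A was lower in number 2, at 8.62, than in number 3, at 8.70. KIF2C had 10.67 in number 1 and 10.625 in number 3. The highest number split the mitotic kinesins. KIF11, KIF15, KIF20B, KIF4A and KIF2A were highest in number 1, with KIF15 at 6.96, 6.18 and 5.87 in numbers 1, 2 and 3. KIF20A, KIF23, KIF18A and KIF2C were highest in number 2, with KIF20A at 8.76, 9.38 and 8.22. KIF14 had 7.78 in number 1 and 7.82 in number 2, and its other probe set was highest in number 1 in both groups. KIF2C had 10.67, 11.23 and 10.62 in PRMT5_down and 10.67, 11.26 and 10.63 in control, so that both groups gave the same order within 0.03.

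CENPA followed the order of number 2 highest, at 9.74, 10.34 and 9.98 averaged over the groups, and the cyclin gene CCNB1 ran alike, at 9.26, 10.74 and 9.88. CCNB1 was not typical of its list: of 28 checkpoint, passenger and mitotic regulators, 21 were lowest in number 3. Among these was the cyclin gene CCNB2, at 10.03, 10.015 and 9.535. Number 1 was highest for 9 of the 12 called genes of the constitutive network, where 2365 of all 6363 called genes were highest, and for the outer kinetochore genes NDC80 and NUF2, with NDC80 at 10.23, 9.87 and 9.14. CENPB and CENPV, in contrast, were lowest in number 1 and highest in number 3. Over the 58 genes the 3 numbers stood in the same order in both groups for 30, where 37.1% of all genes did so. For the 45 above background on all arrays it was 27, against 50.4%. The median range over numbers was 0.68 for mitotic kinesins, 0.715 for the constitutive network and 0.205 for transport kinesins, against 0.275 for all genes. These lists hold unlike shares of genes above background on all arrays, 12 of 13, 14 of 15 and 8 of 13. Among such genes, the range went from 0.15 (KIF3B) to 0.46 (KIF5B) in transport kinesins. In mitotic kinesins it went from 0.075 (KIF18B) to 1.165 (KIF20A). Over the 45 members above background on all arrays the median range was 0.59, against 0.45 for all such genes.

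**Figure D3:**
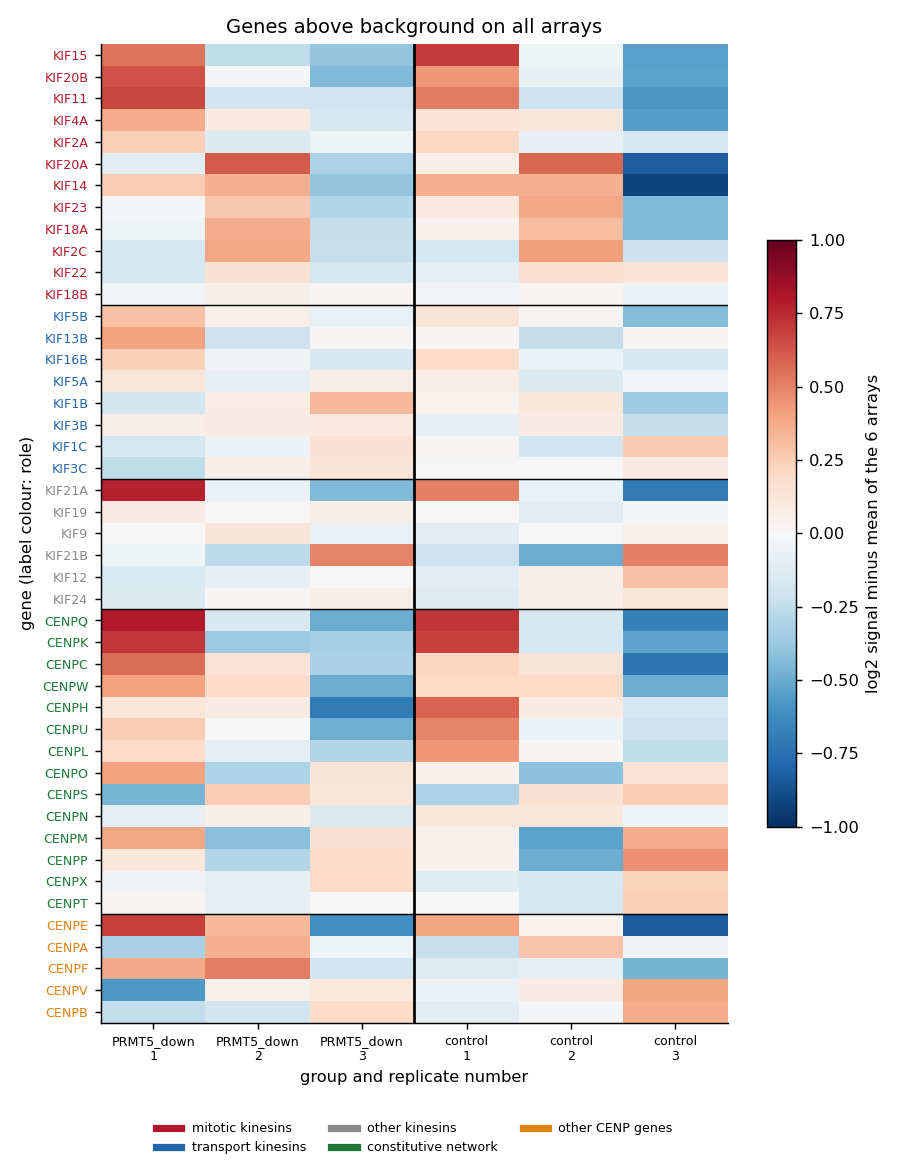
Log2 signal of the 45 genes above background on all arrays, as the deviation from each gene's mean over 6 arrays (colour scale), with PRMT5_down arrays at left and control arrays at right. Within each group, number 1 is high for KIF11 and CENPQ, number 2 for KIF20A and KIF2C, and number 3 is low for most mitotic kinesins.

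**Figure D4:**
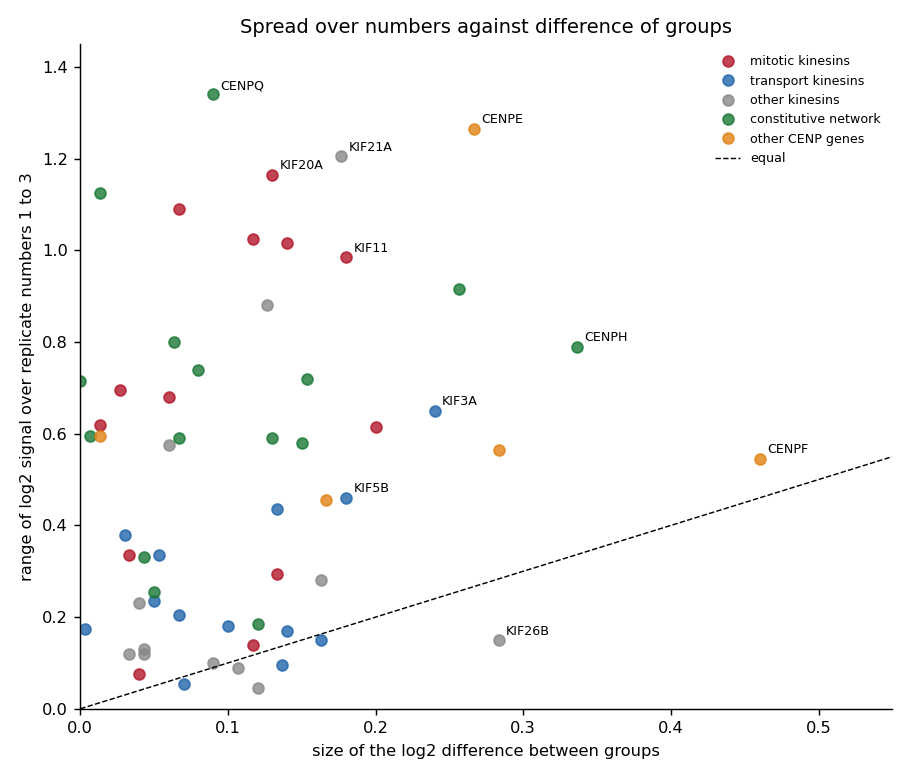
Range of the log2 signal over replicate numbers (y axis, groups averaged) against the size of the log2 difference between PRMT5_down and control (x axis) for the 58 genes, coloured by role. Of these, 52 lie above the dashed line of equality, with CENPQ at a range of 1.34 and a difference of 0.09, and CENPF at 0.545 and 0.46.

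A range over 3 numbers tends to exceed a difference of 2 means even without any effect, and it did so for 89.1% of all genes, against 52 of the 58. For the mitotic kinesins it did so for 13 of 13, and for the transport kinesins for 10 of 13.

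Genes that work with these members were read from the same fit, in lists written out with earlier results of these data known. Of 20 genes listed for the outer kinetochore and CENP-A loading, 15 had a difference above 0 and 5 below. The list also holds ITGB3BP, known as CENP-R, a protein of the constitutive network, at 0.05 (SE 0.32). Its 20 genes had a median of 0.085, and limma called 0 of them. The median was 0.095, 0.005 and 0.175 within numbers 1, 2 and 3. MIS12 differed by 0.19 (SE 0.17), SKA1 by 0.16 (SE 0.16), SPC25 by -0.14 (SE 0.19) and PMF1 by -0.13 (SE 0.17). Of 28 checkpoint, passenger and mitotic regulators, 23 were above 0 and 4 below, with a median of 0.125 and 0 called by limma. The median was 0.05, 0.045 and 0.25 within numbers 1, 2 and 3. All genes of both lists were above background on all arrays, where 50.1% of genes had a difference above 0. SGO2, a protector of centromeric cohesion, had the largest difference there, 0.52 (SE 0.31), with 0.63, 0.31 and 0.63 within the numbers. Limma gave SGO2 an adjusted p of 1 as planned and of 0.337 with the block. The proliferation marker MKI67 differed by 0.31 (SE 0.17), with 0.11, 0.13 and 0.70 within the numbers and 0.12 to 0.415 with 1 array left out. The cytokinesis factor ECT2 differed by 0.33 (SE 0.27), with 0.11, 0.23 and 0.66 within the numbers and 0.0367 to 0.4867 with 1 array left out. The kinase AURKB, with 1 probe set, differed by -0.13 (SE 0.10). Averaged over all probe sets of the gene, the difference was smaller, at 0.37 for SGO2, 0.165 for MKI67 and 0.235 for ECT2.

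The regulators of late cell cycle genes had 6 of 9 above 0 and 2 below, with a median of 0.09. LIN54, the subunit of the DREAM complex that binds the cell cycle homology region, differed by 0.23 (SE 0.25). LIN9 differed by 0.13 (SE 0.15), E2F4 by 0.15 (SE 0.20) and LIN52 by 0.09 (SE 0.16). Averaged over all probe sets of each gene, the differences were 0.10 for LIN54, 0.07 for LIN9, 0.125 for E2F4 and 0.07 for LIN52. Of 19 kinesin partners and other motors, 10 were above 0 and 9 below, with a median of 0.01. KIFBP, which holds several kinesins off microtubules, differed by 0.32 (SE 0.20), the kinesin light chain KLC1 by -0.12 (SE 0.09), KIFC1, which crosslinks spindle microtubules, by 0.11 (SE 0.10), and the dynein chain DYNC1I1, a gene without signal above background, by 0.10 (SE 0.08). Limma called 0 genes of any of these lists in either fit. At an unadjusted limma p under 0.05 there were 0 of all these genes as planned. With the block there were 0 of the outer kinetochore list, 4 of the checkpoint and mitotic regulators, 1 of the late cell cycle regulators and 3 of the kinesin partners, against 8.26% of all genes and 10.4% of those above background on all arrays.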

How the data were processed

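Each of 6 RNA samples labelled NCI-H929, 3 of them PRMT5_down and 3 control, was read on its own Affymetrix array. The authors deposited RMA values on the log2 scale for every probe set, as the submitters' processing notes name RMA. RMA gives all arrays a like distribution, which hides any shift common to most transcripts. Its version is not given in the sources used here. Array medians lay between 5.29 and 5.32, and 3 arrays per group limit the precision.

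Of 49372 probe sets, 44988 named 1 gene, 1832 several, 2473 none here and 79 were controls. Symbols were updated through gene identifiers for 44961. For each of 18132 genes the brightest probe set was kept, with no filter. The test was lmFit and eBayes of limma 3.58.1 in R 4.3.3, adjusted by Benjamini-Hochberg over all genes. Each SE is of this fit without the replicate block, unless the block is named, and so includes the spread between replicate numbers.

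The genes, role lists and tests were chosen with earlier results of these data known. Values on every array are given for 4 genes per role, those of lowest limma p, and for CENPA, CENPE, CENPF, KIF11 and KIF23; from each partner list up to 4 such genes are named. KIF2C, KIF14, KIF20A, NDC80, NUF2, CCNB1 and other genes singled out by replicate number were chosen after their values were seen. Deviations from the group means correlated for arrays sharing a number (r = 0.82, 0.72 and 0.79), so numbers were taken to pair arrays, from the data and not the labels. On simulated data for this comparison with 18132 genes, limma recovered 0% of changes of 0.5 log2 units and 52% of 1 as planned. With the block it recovered 88% and 100%, and 17 of 211 calls were false. The simulation used number effects shared by both groups and noise from the blocked fit, so an advantage of the block was built in. In the real data the blocked limma fit called neither PRMT5 (adjusted p = 0.211) nor AHSP (adjusted p = 0.0869). Alternatives were the replicate block, quantile normalization, the mean of probe sets, leaving out the dimmest genes, a trended robust prior, array weights and leaving out each array.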

Additional observations from a re-analysis of the deposited data

How the results depend on the processing

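Members called by limma numbered 0 in the planned fit, with the replicate block and under every other setting run. The replicate block left PRMT5 at -0.98 and changed no call. PRMT5 stayed below control throughout, from -1.19 to -0.68 with 1 array left out. List medians are small against their spread over settings. With the lowest 50% of genes left out, fewer dim genes being tested, the transport kinesins' median was 0.13 and the gap of mitotic minus transport -0.0833. With 1 array left out, the median ranged from -0.12 (without control replicate 3) to 0.14 for mitotic kinesins, -0.0133 to 0.115 for transport kinesins and -0.0783 to 0.055 for centromere proteins, and the gap from -0.11 to 0.11. These fits leave the numbers unbalanced between the groups. The members called between replicate numbers, 33, were 31 to 35 under the other settings and 0 to 0 with 1 array left out, where 1 residual degree of freedom remains. Of 23 named members, 13 kept their direction under every setting in which they were tested. Leaving out the dimmest genes removed KIF2B and KIF27 at 30% and 50%, and KIF3A, KIF17, KIF19 and KIF26B at 50%. The mean of probe sets turned KIF18B (-0.0217), CENPN (0.0544) and KIF23 (0.0267), and array weights turned CENPA (0.12) and KIF11 (-0.0793); the cause was not tested. With 1 array left out the ranges that crossed 0 were -0.0167 to 0.34 for CENPO, -0.0833 to 0.64 for CENPE, -0.19 to 0.15 for CENPA, -0.11 to 0.49 for KIF11, -0.26 to 0.16 for KIF23, -0.025 to 0.335 for KIF4A, -0.0133 to 0.42 for KIF3A and -0.045 to 0.48 for CENPC. Signal at or below background limits KIF2B, KIF17, KIF26B and KIF27.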
